A study of Mus musculus with 9 samples.

Results

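The comparison described here sets mice given 2.0 MAC sevoflurane against awake control mice (CTRL), and it uses 6 of the 9 RNA-seq libraries of the study, 3 in each group, chosen by their group labels. Inhaled anesthetic dose is given in MAC (minimum alveolar concentration). All mice were male wildtype C57BL/6J animals aged 8 to 15 weeks. The 2.0 MAC mice breathed sevoflurane at 2.0 MAC for 30 min and then at 0.7 MAC for 90 min, in 100% oxygen. The CTRL mice moved freely for 120 min and received no sevoflurane. The other 3 libraries come from mice kept at 0.7 MAC for 120 min in 100% oxygen, and they share the CTRL libraries with the main comparison wherever their values are given. The higher dose is the one at which mice show gasping-like breathing, and the comparison asks which genes differ in such animals from awake ones. Sevoflurane and the 100% oxygen given with it cannot be told apart in this design. The study's methods also describe tracheal intubation and a heating pad for anesthetized mice, whereas CTRL mice moved freely. Where these steps applied to the sequenced mice, they cannot be told apart from sevoflurane either. The sources do not say that each library is a separate mouse, so the p-values measure the spread between these libraries, which may be technical.

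Sevoflurane is a volatile anesthetic that strengthens inhibitory GABA-A and glycine receptor currents and opens background potassium channels, while glutamate receptor currents are weakened. Neurons that fire less transcribe less of the activity-dependent early genes such as Npas4, Arc and the Egr family, whereas vascular cells, glia and stress hormones drive their own early genes, among them Klf4, Klf2, Atf3 and Maff. Hypothalamic neurons are known by their peptides, which include orexin (Hcrt), melanin-concentrating hormone (Pmch), oxytocin (Oxt) and vasopressin (Avp).

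Each library held between 5321491 and 7134505 exon reads in these 6 libraries, and levels are given in CPM, the exon reads of a gene relative to its library total, with TMM scaling. The tissue is labelled hypothalamus, and all animals were perfused with ice-cold PBS. The study's methods describe it as the region left after cortex, cerebellum and olfactory bulb had been removed. Of 28 hypothalamic markers, 10 had too few reads to test, among them Agrp, Ghrh, Rax and Nr5a1. The 23 striatal markers tested summed to between 2460 and 3022 CPM in CTRL, so the tissue also held brain outside the hypothalamus. Cerebellar markers differed both between groups and between libraries. For 12 of 18 tested, every 2.0 MAC library lay above every CTRL library (28.3% of all genes had groups that did not overlap, in either direction), and the list median was 0.81. The list summed to 1124, 911.1 and 1087 CPM in CTRL and to 899.3, 870.6 and 1654 CPM in 2.0 MAC. In 0.7 MAC the sums were 1787, 3014 and 1128 CPM, and 4 markers rose there against CTRL, beside 0.884% of all genes. Cbln3 stood at 86.0 CPM in 2.0 MAC replicate 3, against 24.5 and 13.4 CPM in 2.0 MAC replicates 1 and 2 and at most 4.87 CPM in CTRL. Of the 18, 1 rose (Zic4, not called without CTRL replicate 1) and none fell, but 10 rose when the 6 libraries were fitted without the 0.7 MAC group. The pituitary hormone gene Gh had no read in CTRL and 0.556, 6.78 and 0.138 CPM in 2.0 MAC. The edgeR fit of all 9 libraries did not call it, while DESeq2 and the edgeR fits with the replicate block, with no filter and without 2.0 MAC replicate 3 did. CTRL replicate 2 was the lowest CTRL library for several cortical genes, with Tbr1 at 15.0 CPM against 46.0 and 31.7 CPM in replicates 1 and 3.

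Of 14140 genes with enough reads, 54 were higher in 2.0 MAC by at least 2-fold at an adjusted p under 0.05 and 138 were lower (edgeR quasi-likelihood test, Benjamini-Hochberg adjustment). These are 0.382% and 0.976% of the genes tested. At any fold, 475 genes rose (3.36%) and 908 fell (6.42%). The median log2 fold change over all tested genes was 0.00153, so the changes are set against a centre near 0. The counts depended on single libraries. Without CTRL replicate 1 there were 35 higher and 88 lower genes at 2-fold, and 189 and 508 at any fold. The any-fold count of higher genes was 268, 203 and 314 without 2.0 MAC replicates 1, 2 and 3, and that of lower genes was 593 and 561 without replicates 1 and 2. With upper-quartile scaling the any-fold split moved to 616 higher and 787 lower, and with library totals alone to 640 and 792. In 0.7 MAC against CTRL, 0.884% of the genes rose and 0.743% fell at any fold. In 2.0 MAC against 0.7 MAC, 5.98% were higher and 8.73% lower. By intron reads, 4.99% rose and 6.47% fell in 2.0 MAC against CTRL. The counts of called list members given below are to be read beside the any-fold shares of the same comparison.

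**Figure D1:**
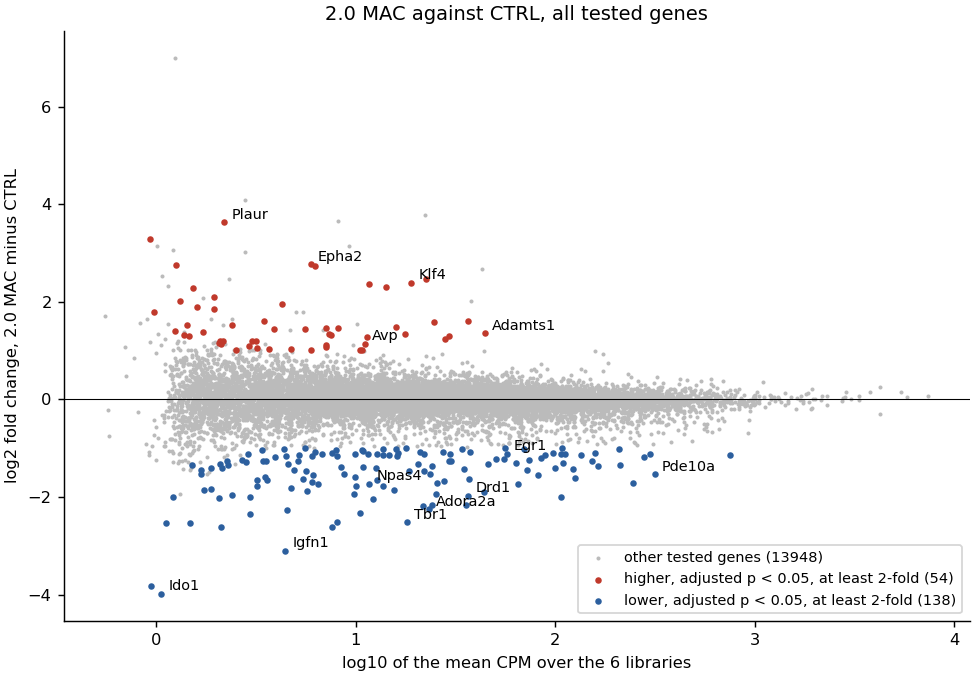
Each point is a tested gene, with the log10 of its mean CPM over the 6 libraries on the x axis and the log2 fold change of 2.0 MAC minus CTRL on the y axis. The 54 genes called higher by at least 2-fold (red) include Plaur, Epha2 and Klf4, and the 138 called lower (blue) include abundant genes such as Pde10a.

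Markers of the striatum fell almost throughout. Of 23 striatal markers tested, 21 fell and none rose, with a median log2 fold change of -1.13. The same list in 0.7 MAC against CTRL had 2 that fell and none that rose, beside 0.743% of all genes lower and 0.884% higher. In 2.0 MAC against 0.7 MAC, 20 of the 23 were lower, beside 8.73% of all genes, and none was higher, beside 5.98%. In each fit without 1 of the 6 libraries, 21 members of the list fell.

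Adora2a, an adenosine receptor of indirect pathway neurons (chromosome 10, 75316943 to 75334788, GRCm38), measured 42.9, 30.9 and 41.6 CPM in CTRL replicates 1 to 3 and 10.4, 5.81 and 8.15 CPM in 2.0 MAC. The groups did not overlap, and the log2 fold change was -2.26 ± 0.23 (SE, edgeR adjusted p = 1.72e-05). Drd1, the dopamine receptor of direct pathway neurons, gave 60.8, 53.8 and 59.6 CPM in CTRL against 16.5, 15.5 and 12.6 CPM. Each 2.0 MAC library was below every CTRL library, a 3.94-fold fall. Pde10a, a phosphodiesterase rich in medium spiny neurons, was 531, 397 and 478 CPM in CTRL and 169, 154 and 162 CPM in 2.0 MAC. Its log2 fold change was -1.54 by exon reads and -0.45 by intron reads, both with an adjusted p under 0.05. Rgs9, which shortens dopamine receptor signalling, fell by 1.56 on the log2 scale, and Penk, the enkephalin precursor, fell by 1.13. Sh3rf2 fell by 2.61.

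Ido1, a member of the striatal list whose product breaks down tryptophan, had 16, 11 and 11 exon reads in the CTRL libraries and 2, 0 and 0 in 2.0 MAC. The ratio of 2.0 MAC to CTRL over these reads was 0.055, with an exact 95% interval of 0.00643 to 0.213 that covers counting error only.

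Cortical and hippocampal markers fell less evenly. Of 28 tested, 13 fell and 1 rose (Tshz2, named after its values were seen, in a call lost without CTRL replicate 1 or 3 or 2.0 MAC replicate 1 or 2), with a median of -0.55. In 0.7 MAC against CTRL, 3 of them rose and 1 fell, and in 2.0 MAC against 0.7 MAC 19 were lower and 1 higher. Tbr1, which specifies deep cortical projection neurons, measured 46.0, 15.0 and 31.7 CPM in CTRL, 30.4, 30.8 and 50.2 CPM in 0.7 MAC and 3.71, 5.97 and 6.08 CPM in 2.0 MAC. CTRL replicate 2 was the lowest CTRL library for this gene but still above every 2.0 MAC library, and the log2 fold change was -2.52 ± 0.37 (edgeR adjusted p = 0.000316). Bcl11b, which marks subcortically projecting and striatal neurons, was 164, 122 and 148 CPM in CTRL and 57.9, 51.0 and 55.8 CPM in 2.0 MAC.

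Nrgn (neurogranin, a calmodulin-binding postsynaptic protein) fell by 1.61 on the log2 scale, Mef2c by 1.27, and Lmo3 fell 2.29-fold. For each of these the 2.0 MAC against 0.7 MAC contrast was also called, at -1.89, -1.52 and -1.19, while the 0.7 MAC against CTRL values were 0.28, 0.25 and -0.01 and not called. The potassium channel genes Kcnv1 and Kcnj4 fell by the same log2 value, 2.17. In bulk tissue, fewer cells of a type and less RNA per cell cannot be told apart. The summed cortical markers ranged from 1979 to 2753 CPM in CTRL, 2557 to 2971 in 0.7 MAC and 1426 to 1598 in 2.0 MAC. Striatal sums ranged from 2460 to 3022, 1925 to 2941 and 1199 to 1337 CPM in the same order. The part of the dissected tissue's makeup in these falls was not tested.

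**Figure D2:**
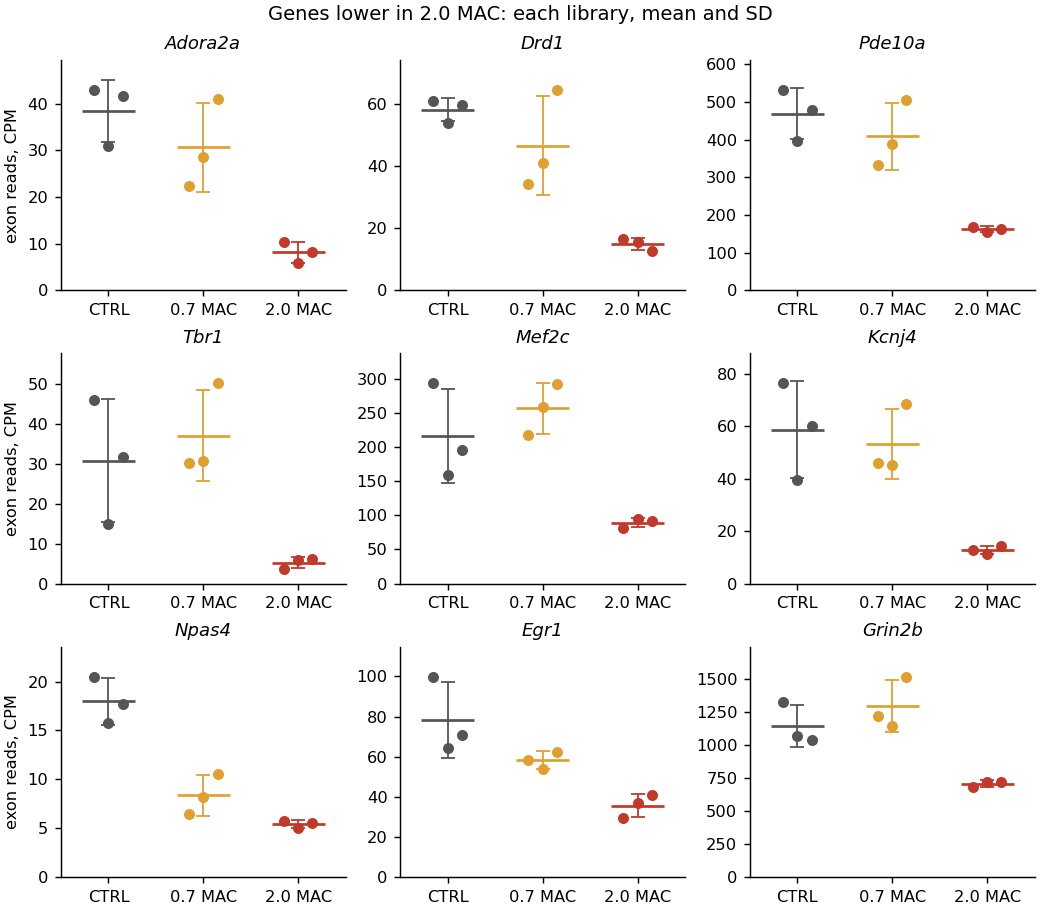
Exon reads in CPM (y axis, from 0) are shown for 9 genes that fell in 2.0 MAC, with a point for each library, a bar at the group mean and whiskers of 1 SD (3 libraries a group). The 2.0 MAC points lie below every CTRL point in each panel, and for the striatal and cortical genes the 0.7 MAC points lie among or near the CTRL points.

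Glutamate receptor genes fell as well. Of 15 NMDA and AMPA receptor genes tested, 9 fell and none rose, with a median of -0.25. None was called in 0.7 MAC against CTRL, and 9 were lower and 1 higher in 2.0 MAC against 0.7 MAC. Grin2b, an NMDA receptor subunit, fell by 0.69 on the log2 scale and Grin2a by 0.47. The AMPA receptor subunits Gria2 and Gria3 fell by 0.44 and 0.49. The largest fall of the list was that of Cacng3, an AMPA receptor auxiliary subunit, from 42.3, 29.6 and 34.7 CPM to 16.5, 20.2 and 17.95 CPM. With upper-quartile scaling or library totals, 2 of the list rose and 8 fell. The list summed to between 4300 and 5014 CPM in CTRL, 4794 and 5535 in 0.7 MAC and 3452 and 3635 in 2.0 MAC. The summed cortical and striatal marker levels given above were also lower in the 2.0 MAC libraries. Their part in the glutamate receptor results was not tested.

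Among 20 GABA-A and glycine receptor genes, the direct targets of volatile anesthetics, 5 fell and 1 rose. Gabra4, a subunit of extrasynaptic receptors in striatum and thalamus, fell by 0.58 (edgeR adjusted p = 0.0027), Gabra2 fell by 0.45 and Gabrg3 by 0.40. Glra1, the glycine receptor subunit of brainstem and spinal cord, rose from 53.2, 80.3 and 76.7 CPM to 96.6, 102 and 93.6 CPM. Glra1 was not called without 2.0 MAC replicate 2, and the number that fell was 3 without CTRL replicate 1, 2.0 MAC replicate 1 or 2.0 MAC replicate 2. The part of the dissected tissue's makeup in these receptor gene results was not tested. Of 17 background potassium, HCN and NALCN channel genes, 1 rose (Hcn2) and 2 fell (Kcnk2 and Unc79), beside 3.36% of all genes higher and 6.42% lower. Without CTRL replicate 1 or 2.0 MAC replicate 2, no gene of this list was called.

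Activity-dependent early genes moved in both directions. Of 38 tested, 14 fell and 6 rose, with a median of -0.14, and in 2.0 MAC against 0.7 MAC 13 were lower and none higher. In 0.7 MAC against CTRL, 7 rose and 3 fell, with a median of 0.15. Npas4, a neuron-specific factor induced by calcium entry, was 20.5, 15.7 and 17.7 CPM in CTRL, 6.41, 8.15 and 10.6 CPM in 0.7 MAC and 5.75, 5.00 and 5.52 CPM in 2.0 MAC. Its levels did not overlap between CTRL and either dose, and the log2 fold change was -1.72 ± 0.18 against CTRL (edgeR adjusted p = 2.6e-05) and -1.10 in 0.7 MAC. Egr2, a zinc-finger early gene, was at 5.57, 4.88 and 3.84 CPM in CTRL against 0.742, 1.45 and 1.24 CPM, a 4.02-fold fall. Egr1 dropped by 1.12 and the kinase gene Plk2 by 1.24, and both were also lower than in 0.7 MAC, by 0.70 and 1.37. Arc, which regulates AMPA receptor endocytosis and was named after its values were seen, fell by 1.33 on the log2 scale.

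The 6 early genes that rose included Maff and Cyr61, described below with Plaur and Klf4, and the stress-responsive Gadd45b and Gadd45g (named after their values were seen). The cells in which these genes rose were not tested. By intron reads, 15 of 27 list members fell and 1 rose, beside 6.47% of all genes lower and 4.99% higher by intron reads. Npas4 intron reads fell by 3.06 on the log2 scale and those of Fos by 2.69. The exon counts of the list were 9 that fell and 3 that rose without CTRL replicate 1, and 9 and 5 without 2.0 MAC replicate 2. The summed cortical and striatal marker levels given above fell in the same libraries, and their part in the early gene results was not tested.

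Of 14 AP-1 and ATF factors, 3 rose and 2 fell, beside 3.36% of all genes higher and 6.42% lower. Fos was 24.2, 25.8 and 19.8 CPM in CTRL and 16.7, 14.4 and 16.7 CPM in 2.0 MAC, and Junb fell by 0.62. Jun rose by 0.47, with overlapping groups. The Fos call was lost without CTRL replicate 1 or 2 or 2.0 MAC replicate 1 or 2, and the Jun call without CTRL replicate 3 or 2.0 MAC replicate 2 or 3. Of 17 feedback inhibitors of MAP kinase signalling, 4 fell and 2 rose. Spry2 fell by 0.71 and Dusp14 by 1.13, while Dusp1 rose from 25.2, 26.8 and 24.6 CPM to 50.8, 38.3 and 39.6 CPM, and Dusp16 rose by 0.43. The number that fell was 2 without CTRL replicate 1 or 2.0 MAC replicate 1.

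Plaur led the called genes that averaged 1 CPM or more and whose groups did not overlap. Plaur encodes the urokinase receptor (chromosome 7, 24462484 to 24475968) and had 0.164, 0.315 and 0.443 CPM in CTRL, 1.95, 3.91 and 4.44 CPM in 0.7 MAC and 4.64, 2.91 and 4.69 CPM in 2.0 MAC. These are 1, 2 and 3 reads in the CTRL libraries and 25, 18 and 34 reads in 2.0 MAC. The fold was 12.4 (log2 3.63 ± 0.49, edgeR adjusted p = 0.000177), and intron reads gave 3.17. Epha2, an ephrin receptor of epithelial and vascular cells, measured 1.47, 1.57 and 1.48 CPM in CTRL and 10.2, 10.7 and 10.2 CPM in 2.0 MAC. Klf4, an endothelial transcription factor induced by flow and stress, was 7.54, 5.98 and 4.72 CPM in CTRL, 21.3, 28.04 and 35.5 CPM in 0.7 MAC and 34.7, 30.3 and 30.5 CPM in 2.0 MAC.

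For each of these genes the anesthetized libraries of both doses lay above every CTRL library. Apold1, an endothelial early gene, rose 5.53-fold by exon reads, but its intron reads gave a log2 value of 0.67 that was not called. Maff, a small Maf factor, rose by 2.74, Cyr61, a matricellular gene, by 2.30, Klf2, the flow-induced partner of Klf4, by 1.48 and Atf3, a stress-induced repressor, by 2.09 (0.49 by intron reads, not called). Ctla2a, a cysteine protease inhibitor gene, rose 3.86-fold, and reads shared with its close copy Ctla2b could be split between them. In 2.0 MAC against 0.7 MAC the log2 differences were 0.27 ± 0.30 (SE) for Plaur, 0.39 ± 0.17 for Epha2, 0.17 ± 0.15 for Klf4, 0.11 ± 0.20 for Maff and 0.13 ± 0.15 for Klf2, none of them called.

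Among the highest were also genes of low level. B3gnt5, Tnfrsf10b, Bcl6b and 4930523C07Rik rose by 2.27, 1.88, 1.61 and 2.02, and each lost its call when some single libraries were left out. B3gnt5 lost it without CTRL replicate 1 or 2.0 MAC replicate 3, and Bcl6b without CTRL replicate 2 or 3 or 2.0 MAC replicate 1. Tnfrsf10b lost it without CTRL replicate 1 or 2 or 2.0 MAC replicate 1 or 3, and 4930523C07Rik without any of the CTRL replicates or 2.0 MAC replicate 2 or 3. The unnamed transcripts 2010310C07Rik and Gm20219 rose by 2.76 and 1.86, the latter not called by intron reads (0.67).

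**Figure D3:**
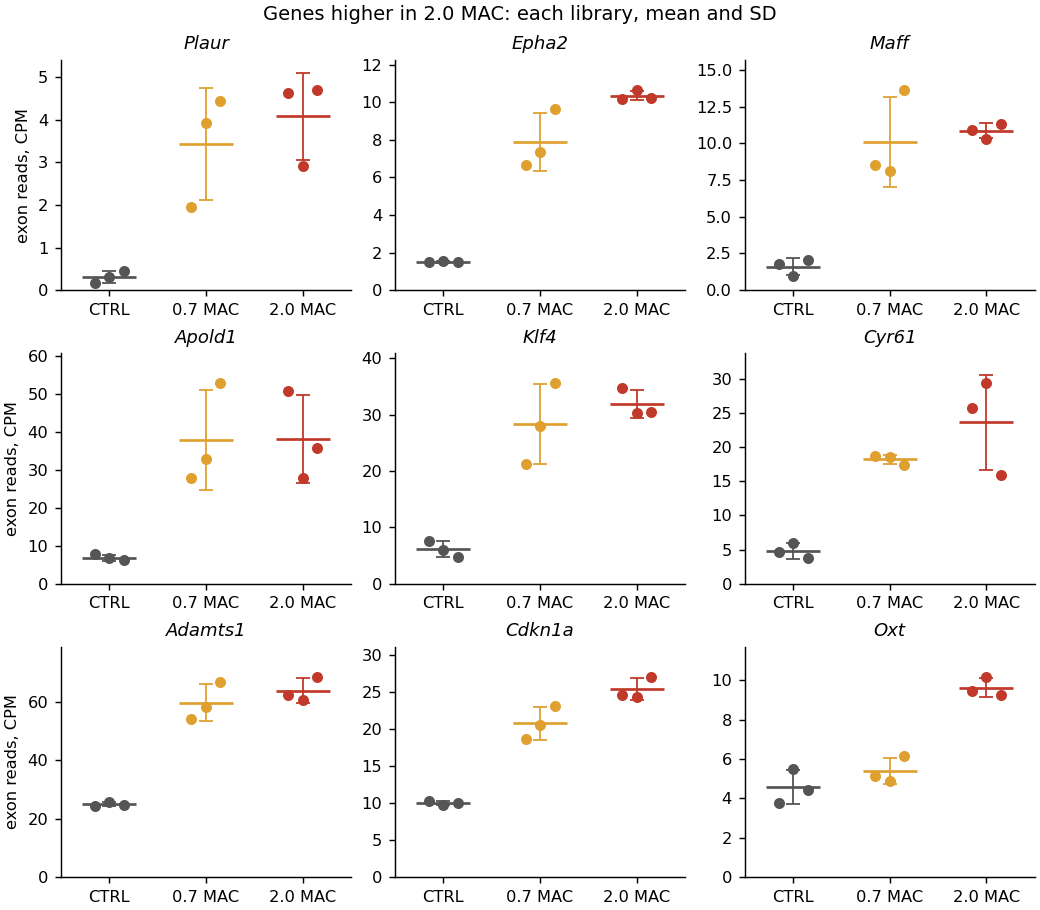
Exon reads in CPM (y axis, from 0) are shown for 9 genes that rose in 2.0 MAC, with a point for each library, a bar at the group mean and whiskers of 1 SD (3 libraries a group). The 0.7 MAC points sit near the 2.0 MAC points for Plaur to Cdkn1a, whereas for Oxt they sit near CTRL.

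Promoter windows show which short motifs the rising genes carry. Windows of 300 bases (250 before to 50 after a start, from RefSeq, GRCm38.p6) were matched by symbol for 40 of the 54 genes higher by at least 2-fold and for 10755 of the 14140 genes tested. The AP-1 site TGANTCA, searched on both strands, was in a window of 8 of the 40 (20%) and of 6.07% of all matched genes. The 8 were Avp, Ccl9, Ctla2a, Ctla2b, Il5ra, Plaur, Slc6a12 and Tinagl1. The cyclic AMP response element TGACGTCA was in 3 of the 40 (7.5%), Epha2, Fau and Maff, against 3.64% of all. None of the motifs searched contains another. A CArG box was in 1 of the 40 (2.5%), against 1.52%. These matches are descriptions of the letters and not bound sites. The windows printed here, on the strand of the gene and with the motif in capitals, are those of 4 of the highest genes and of Hmgcs1, a sterol gene described later, whose capitals mark the core TCACCCCA.
Plaur (chr7:24462233-24462532, plus strand): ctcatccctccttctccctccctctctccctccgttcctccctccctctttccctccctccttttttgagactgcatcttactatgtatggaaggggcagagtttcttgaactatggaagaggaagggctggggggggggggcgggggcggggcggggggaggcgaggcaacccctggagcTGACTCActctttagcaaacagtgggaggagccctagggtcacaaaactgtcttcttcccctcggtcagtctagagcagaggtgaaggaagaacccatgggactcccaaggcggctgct
Ctla2a (chr13:60936576-60936875, minus strand): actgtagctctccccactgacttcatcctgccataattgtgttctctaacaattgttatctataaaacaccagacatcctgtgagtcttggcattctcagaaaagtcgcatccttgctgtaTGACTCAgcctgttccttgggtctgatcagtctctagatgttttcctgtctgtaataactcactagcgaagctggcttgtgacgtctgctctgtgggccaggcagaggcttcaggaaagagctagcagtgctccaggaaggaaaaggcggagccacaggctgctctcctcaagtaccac
Epha2 (chr4:141300971-141301270, plus strand): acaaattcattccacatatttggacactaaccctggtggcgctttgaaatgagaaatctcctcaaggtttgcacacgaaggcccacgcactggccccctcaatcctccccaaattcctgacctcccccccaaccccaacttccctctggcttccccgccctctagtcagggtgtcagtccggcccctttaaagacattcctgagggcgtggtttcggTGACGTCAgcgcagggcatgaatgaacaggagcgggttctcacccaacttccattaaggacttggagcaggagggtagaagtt
Maff (chr15:79347270-79347569, plus strand): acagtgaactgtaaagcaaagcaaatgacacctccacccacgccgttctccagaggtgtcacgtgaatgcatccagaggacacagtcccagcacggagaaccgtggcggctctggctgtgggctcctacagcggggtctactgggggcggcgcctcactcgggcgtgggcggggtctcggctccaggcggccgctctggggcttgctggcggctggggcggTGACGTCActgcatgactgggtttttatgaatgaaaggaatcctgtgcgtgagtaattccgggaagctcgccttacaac
Hmgcs1 (chr13:119690101-119690400, plus strand): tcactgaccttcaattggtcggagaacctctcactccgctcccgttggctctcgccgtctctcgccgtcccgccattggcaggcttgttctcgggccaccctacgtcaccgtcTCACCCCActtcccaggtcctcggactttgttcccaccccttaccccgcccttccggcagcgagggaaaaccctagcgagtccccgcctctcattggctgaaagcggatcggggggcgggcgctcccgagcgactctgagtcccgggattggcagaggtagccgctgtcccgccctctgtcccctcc

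Secreted proteases and matrix genes rose with Plaur. Of 25 tested, 8 rose and none fell, with a median of 0.37, and the same list gave 5 and none in 0.7 MAC against CTRL. Adamts1, a protease that cleaves aggrecan and versican, was 24.4, 25.8 and 24.6 CPM in CTRL, 54.2, 58.0 and 66.6 CPM in 0.7 MAC and 62.3, 60.5 and 68.5 CPM in 2.0 MAC. Spread within each group was small against the gap from CTRL, and the log2 fold change was 1.36 ± 0.09 (edgeR adjusted p = 1.76e-06). Adamts9 rose by 1.58 and Plat, the tissue plasminogen activator, by 0.55. Of 22 Kruppel-like and other endothelial early factors, 6 rose, with Klf6, Klf3 and Id1 at 0.50, 0.37 and 0.81 beside Klf4 and Klf2, and 1 fell (Foxo1, named after its values were seen, and 3 without CTRL replicate 2).

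Endothelial marker genes moved in both directions. Of 18 tested, 6 fell and 2 rose, with a median of -0.21, and their sum ranged from 650.8 to 697.5 CPM in CTRL and 631.1 to 676.8 CPM in 2.0 MAC. Slco1a4, an organic anion transporter of the blood-brain barrier, was 75.5, 88.9 and 77.5 CPM in CTRL, 47.9, 50.1 and 53.5 CPM in 0.7 MAC and 55.8, 53.3 and 42.7 CPM in 2.0 MAC. Both anesthetized groups lay below CTRL for this gene, at a log2 value of -0.68 each. Cdh5, the adherens junction cadherin, rose by 0.51 and Slc2a1, the glucose transporter of the barrier, by 0.63. The count that fell dropped to between 1 and 3 when any of the 6 libraries was left out, with 1 without CTRL replicate 3, and the Slco1a4 call was made in each of those fits. No pericyte and smooth muscle marker of 11 was called by edgeR or DESeq2 (before adjustment, none higher and 2 lower with p under 0.05). Of 14 microglial markers 1 (Cx3cr1) fell, beside 6.42% of all genes, a call lost without CTRL replicate 1 or 2.0 MAC replicate 1.

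Of 18 inflammatory and cytokine response genes tested, 4 rose (Nfkbia, Icam1, Zfp36 and Cebpd) and none fell, and a further 17 of the list, Il1b, Il6, Tnf and Ccl2 among them, had too few reads. Nfkbia, the NF-kappa-B inhibitor that NF-kappa-B induces, was 14.9, 19.7 and 17.9 CPM in CTRL and 31.0, 25.7 and 25.5 CPM in 2.0 MAC. DESeq2 called 1 of the list, 1 rose without CTRL replicate 1 or 2.0 MAC replicate 3, and 2 rose without 2.0 MAC replicate 2. The Nfkbia call was made without each of the 6 libraries in turn. Of 27 angiogenic genes, 2 rose (Angpt2 and Unc5b) and 1 fell (Tie1), beside 3.36% of all genes higher and 6.42% lower. None of the 27 was called by DESeq2, or without CTRL replicate 3 or 2.0 MAC replicate 2. The Angpt2 call was lost whichever of the 6 libraries was left out.

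Many glucocorticoid-induced genes rose. Of 31 tested, 17 rose and none fell, with a median of 0.40. In 0.7 MAC against CTRL 8 rose and none fell, with a median of 0.36, beside 0.884% of all genes higher and 0.743% lower. In 2.0 MAC against 0.7 MAC 3 were higher and 1 lower, beside 5.98% and 8.73% of all genes. By intron reads 9 of 23 rose and 2 fell, beside 4.99% and 6.47% of all genes. Cdkn1a, the cell cycle inhibitor p21, was 10.3, 9.76 and 10.04 CPM in CTRL, 18.7, 20.5 and 23.1 CPM in 0.7 MAC and 24.7, 24.4 and 27.1 CPM in 2.0 MAC. The 3 groups did not overlap in this gene, which rose 2.53-fold against CTRL (edgeR adjusted p = 6.41e-06). Tsc22d3, the glucocorticoid-induced leucine zipper, rose by 0.63, the metallothionein genes Mt1 and Mt2 by 0.37 and 0.57, and Dusp1 by 0.74. Arrdc2, an arrestin-domain gene, rose from 9.83, 19.99 and 20.5 CPM to 48.4, 39.9 and 37.0 CPM and was higher than in 0.7 MAC by 0.52. Sgk1, a hormone-induced kinase named after its values were seen, rose by 0.93 in exon reads while its intron reads fell by 0.36 (edgeR adjusted p = 0.0140). The number that rose was 9 without CTRL replicate 1 and 10 without 2.0 MAC replicate 1. Dusp1, Nfkbia, Cebpd, Mt1 and Mt2 are among the members of this list that are also in other lists.

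Most cholesterol synthesis and uptake genes rose by less than 2-fold. Of 22 tested, 16 rose and 1 fell, with a median of 0.38. The 1 that fell was lower by at least 2-fold, and the lowest log2 value of the list was -1.65. In 0.7 MAC against CTRL 3 rose, beside 0.884% of all genes. In 2.0 MAC against 0.7 MAC 8 were higher and 1 lower, beside 5.98% and 8.73% of all genes. Insig1, which holds the sterol-sensing machinery in the endoplasmic reticulum, was 124, 133 and 156 CPM in CTRL, 185, 172 and 169 CPM in 0.7 MAC and 221, 244 and 229 CPM in 2.0 MAC. The 3 groups of this gene were ordered without overlap, and the log2 fold changes were 0.75 ± 0.07 against CTRL (edgeR adjusted p = 1.72e-05) and 0.40 against 0.7 MAC.

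Mvd, of the mevalonate pathway, rose from 6.55, 6.61 and 8.71 CPM to 13.2, 16.3 and 14.4 CPM, a 2.00-fold rise. Idi1 and Msmo1 rose by 0.57 and 0.43. Hmgcs1, an early enzyme of the pathway that was named after its values were seen, rose by 0.31. No member fell without CTRL replicate 1 or 3 or 2.0 MAC replicate 1 or 3. By intron reads 12 of 20 list members rose and none fell. The sterol core TCACCCCA was in a promoter window of 1 of the 10 matched members that rose, Hmgcs1, and of 1.74% of all matched genes.

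Among neuropeptide precursors the hypothalamic hormones Oxt and Avp rose, while Penk and Pdyn fell. Of 30 tested, 4 rose and 7 fell, against none and 1 in 0.7 MAC against CTRL. The shares over all genes were 3.36% higher and 6.42% lower, and 0.884% and 0.743% in 0.7 MAC against CTRL. Oxt (chromosome 2, 130576173 to 130577054) was 3.77, 5.51 and 4.43 CPM in CTRL, 5.15, 4.89 and 6.13 CPM in 0.7 MAC and 9.46, 10.2 and 9.25 CPM in 2.0 MAC. Avp, its neighbour on chromosome 2, was 8.19, 8.34 and 4.43 CPM in CTRL and 16.1, 14.0 and 15.6 CPM in 2.0 MAC. Every 2.0 MAC library was above every CTRL library for both hormones, at 2.10-fold and 2.19-fold (edgeR adjusted p = 0.00129 and 0.00371), and both were higher than in 0.7 MAC by 0.83 on the log2 scale. Both calls against CTRL held without each of the 6 libraries in turn. In 2.0 MAC against 0.7 MAC, 10 of 18 hypothalamic markers were higher and 2 lower, with a median of 0.60, and their sum ranged from 1268 to 1321 CPM in 0.7 MAC and 1582 to 1687 CPM in 2.0 MAC. Against CTRL, 4 of the 18 rose and 2 fell, with a median of 0.41. Oxt, Avp, Hcrt and Pmch are themselves members of this marker list, so its counts and sums are not separate from theirs. The part of the dissected tissue's makeup in the differences of Oxt, Avp and Hcrt from CTRL and from 0.7 MAC was not tested.

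Pmch rose by 0.54, a call lost without CTRL replicate 1 or 2.0 MAC replicate 2. Hcrt, the orexin precursor, measured 5.41, 6.93 and 6.05 CPM in CTRL, 5.43, 3.75 and 2.76 CPM in 0.7 MAC and 10.2, 9.85 and 6.35 CPM in 2.0 MAC. Its 2.0 MAC and CTRL libraries overlapped, and the log2 difference of 0.50 ± 0.23 did not pass the test (edgeR adjusted p = 0.209), while against 0.7 MAC it was 1.11 ± 0.25 (adjusted p = 0.0056). The orexin receptor genes Hcrtr1 and Hcrtr2 gave -0.03 ± 0.26 and -0.05 ± 0.18, neither called.

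Of the peptides that fell, Penk went from 194, 168 and 193 CPM to 95.7, 73.1 and 85.5 CPM, Pdyn fell by 0.94, Tac1 by 0.72 and Sst by 0.50. Penk, Pdyn and Tac1 are made by striatal projection neurons among other cells, and Sst by cortical and striatal interneurons among other cells. The part of the dissected tissue's makeup in these peptide falls was not tested. Over the list, 2 rose and 4 fell without CTRL replicate 1 or 2.0 MAC replicate 2, and 4 fell without CTRL replicate 3 or 2.0 MAC replicate 1.

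Marker lists of regions behind the telencephalon had medians above 0. The shares over all genes were 3.36% higher and 6.42% lower. Of 18 hypothalamic markers 4 rose and 2 fell, with a median of 0.41, and of 18 hindbrain markers 5 rose and 1 fell (Egr2, also an activity gene), with a median of 0.32. Among 25 thalamic and habenular markers 5 rose and 2 fell, and no midbrain marker of 16 rose while 1 fell (Nr4a2, a call lost without CTRL replicate 1 or 3 or 2.0 MAC replicate 1 or 2). Their sums ranged from 1427 to 1592 CPM in CTRL and 1582 to 1687 CPM in 2.0 MAC for the hypothalamus, and from 270.9 to 357.9 and 386.8 to 439.7 CPM for the hindbrain. These counts changed with the libraries. Without CTRL replicate 1, the numbers of hypothalamic, hindbrain and thalamic markers that rose were 2, 1 and 1, and without 2.0 MAC replicate 2 they were 2, 0 and 3. Without 2.0 MAC replicate 1, 2 hindbrain markers and 1 thalamic marker rose, and without CTRL replicate 3 it was 2 of each. Without CTRL replicate 2 or 2.0 MAC replicate 3, 3 hindbrain markers rose. Of the hypothalamic markers, none fell with DESeq2 or without CTRL replicate 1 or 2.0 MAC replicate 2, and 1 fell without CTRL replicate 3, 2.0 MAC replicate 1 or 2.0 MAC replicate 3. Calb2, a calcium-binding protein, rose by 0.41 and Pax2, of hindbrain inhibitory neurons, from 4.10, 6.45 and 5.61 CPM to 9.27, 10.8 and 8.15 CPM, a call lost without CTRL replicate 1 or 3 or 2.0 MAC replicate 1 or 2.

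Of 17 astrocyte markers 5 rose and 1 fell, Gfap by 0.50 and S100b by 0.49, while the glutamate transporter gene Slc1a2 fell by 0.30 (a call lost without CTRL replicate 1 or 2.0 MAC replicate 1). The astrocyte count that rose was 3 without CTRL replicate 1 or 2.0 MAC replicate 1 or 2. Of 17 oligodendrocyte markers 3 rose against CTRL (none without CTRL replicate 1 or 2.0 MAC replicate 2, 1 without CTRL replicate 2 or 2.0 MAC replicate 1, 6 without 2.0 MAC replicate 3), and 16 were higher than in 0.7 MAC. In 0.7 MAC against CTRL, 6 of these markers fell and none rose, with a median of -0.31, beside 0.743% of all genes lower. Oligodendrocyte sums ranged from 9482 to 10860 CPM in CTRL, 7635 to 8984 CPM in 0.7 MAC and 10340 to 12410 CPM in 2.0 MAC. Of 16 general neuronal markers 2 rose and 3 fell, with a median of 0.02, beside 3.36% of all genes higher and 6.42% lower. Nefm and Nefh, neurofilaments of long axons, rose by 0.42 and 0.45, while the synaptic vesicle gene Syt1, the GABA synthesis gene Gad1 and the dendritic Map2 fell by 0.43, 0.22 and 0.18. The Map2 call was lost in every fit without a single library except that without CTRL replicate 3. The plot of gene lists sets these medians side by side.

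**Figure D4:**
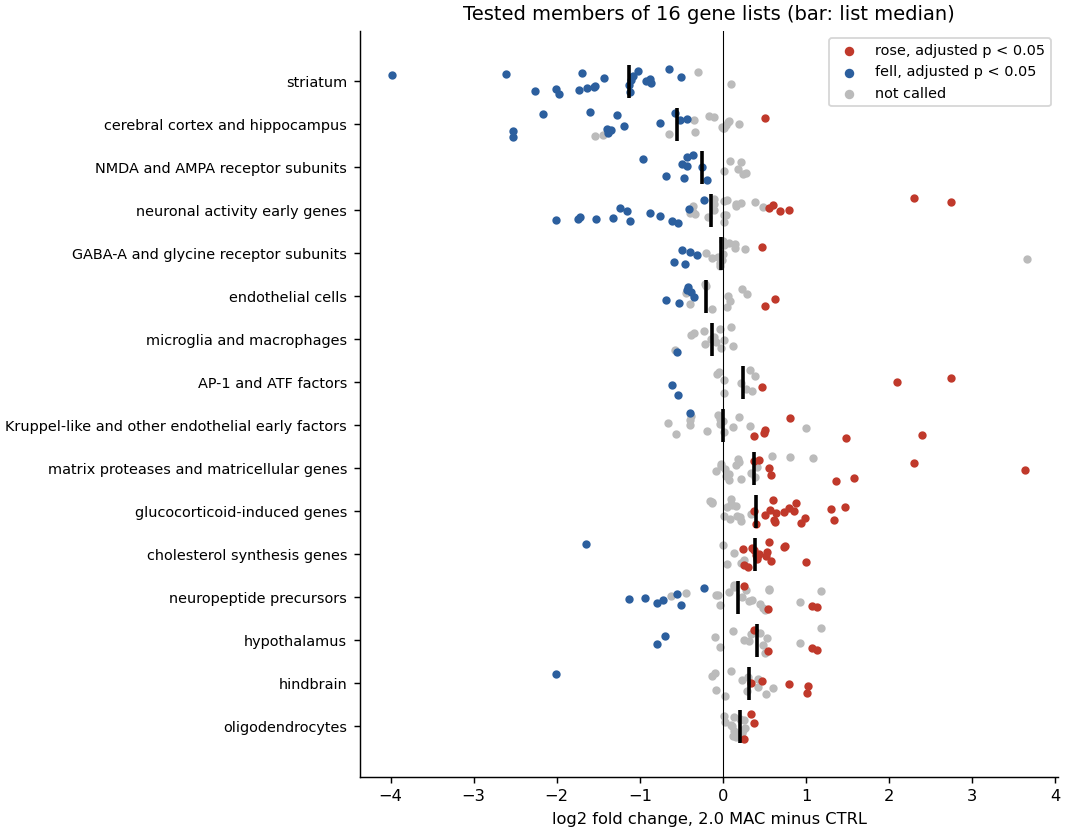
Each point is a tested gene of the list named on the y axis, placed by its log2 fold change of 2.0 MAC minus CTRL (x axis), and the black bar is the list median. Striatal markers lie almost wholly below 0 (median -1.13), and glucocorticoid-induced and cholesterol genes mostly above it (0.40 and 0.38).

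Several of the lowest genes belong to no list. Igfn1, an immunoglobulin and fibronectin repeat gene, was 11.5, 4.25 and 8.12 CPM in CTRL and 0.556, 1.13 and 0.967 CPM in 2.0 MAC, an 8.62-fold fall that intron reads gave as -3.17 on the log2 scale. Lrrc10b, a leucine-rich repeat gene, fell by 2.18, and Abi3bp, a matrix-associated gene, by 2.05. Tnfsf10, the death receptor ligand TRAIL, was 4.42, 4.72 and 5.61 CPM in CTRL, 1.25, 0.978 and 1.38 CPM in 0.7 MAC and 1.11, 1.13 and 0.690 CPM in 2.0 MAC. It fell at both doses against CTRL, with log2 values of -2.34 in 2.0 MAC and -2.01 in 0.7 MAC, and the 2.0 MAC against 0.7 MAC value of -0.33 was not called. Cd4, a T-cell coreceptor gene, fell by 2.27 by exon reads and was not called by intron reads.

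Intron reads, which come mostly from unspliced RNA, were tested as a second readout of the same libraries. Of 15031 genes tested by them, 750 rose and 973 fell. Without CTRL replicate 1 these were 340 and 573, and 463, 423 and 461 rose without 2.0 MAC replicates 1, 2 and 3. Of the 54 genes higher by at least 2-fold, 40 were tested by intron reads and 38 had the same sign, 23 of them called. Of the 138 lower genes, 106 were tested, 102 had the same sign and 77 were called. The median log2 values by intron and exon reads were 1.07 and 1.38 for the higher genes and -1.08 and -1.35 for the lower ones. The share of intron reads among gene reads was 59.0% ± 0.117 (SD, n = 3) in 2.0 MAC and 60.4% ± 0.753 in CTRL (two-sided exact permutation p = 0.1, the smallest that 3 against 3 libraries allow).

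**Figure D5:**
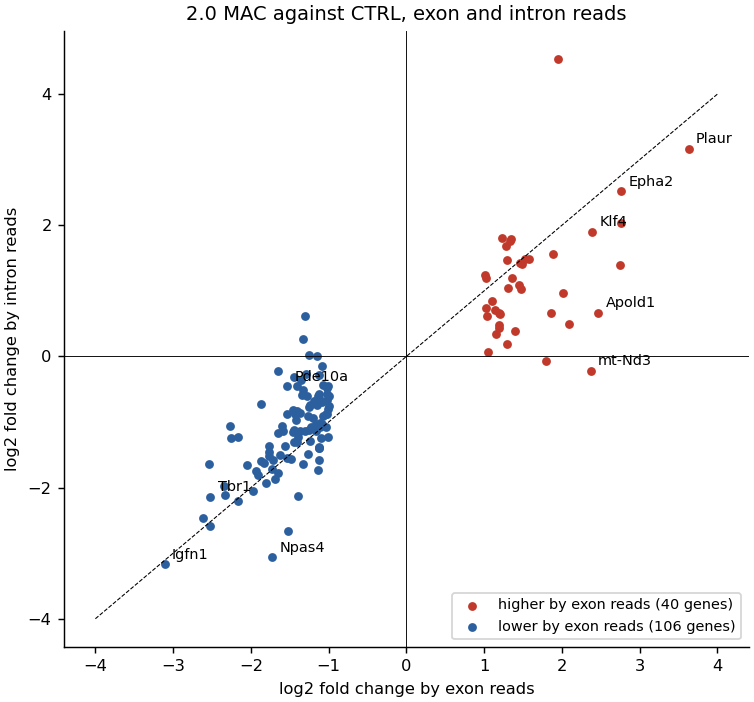
For the 146 genes called at 2-fold by exon reads and tested by intron reads, the x axis gives the log2 fold change by exon reads and the y axis that by intron reads, with the dashed line at equal values. Points of genes that rose (red, 40) and fell (blue, 106) lie mostly in the quadrants of equal sign, and mt-Nd3 (a mitochondrial gene without introns) and Apold1 lie well below the line.

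Mitochondrial transcripts were uncertain, since reads of them can be shared with near-identical nuclear copies. Of 13 mitochondrially encoded genes, mt-Nd3 rose by 2.37 by exon reads, and mt-Co2 and mt-Atp6 fell by 1.56 and 0.97. Reads counted as intron reads gave -0.22 for mt-Nd3. Mitochondrial genes have no introns, so that value is not a readout of unspliced RNA. With total gene reads mt-Co2 and mt-Atp6 were 0.16 and 0.12, and with limma on RPKM 0.20 and 0.16, so their direction depended on which reads were counted. The mt-Atp6 call was lost without CTRL replicate 1 or 2 or any of the 2.0 MAC replicates. The abundant mt-Co1 gave 0.06 ± 0.04, not called.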

How the data were processed

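RNA-seq was compared between 3 libraries of 2.0 MAC and 3 of CTRL, with 3 of 0.7 MAC in the same fit. The authors mapped the reads and deposited exon, intron and total read counts per gene and RPKM values. The builds GRCm38 and mm10 are those in the submitters' processing notes. No annotation release is given in the sources used here. Columns of the authors' own fold changes and p-values (EDGE test) were not used, nor were 148 other columns of per-sample values. Intron shares and depth were read from the same table.

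Genes were filtered with filterByExpr at a minimum count of 10 and scaled with TMM, and groups were compared with edgeR 4.0.16 quasi-likelihood tests (R 4.3.3) with Benjamini-Hochberg adjustment over all tested genes. A call needs an adjusted p under 0.05 and, where stated, a fold of 2. Alternatives were DESeq2 1.42.0, limma 3.58.1 on log2(RPKM + 0.1), other scalings, a minimum count of 30 or none, glmTreat at a fold of 1.2, total or intron reads, the 6 libraries alone, a replicate block and leaving out each library. The scripts were tested on simulated data.

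Named genes are the 15 highest and 15 lowest called genes of at least 1 CPM with groups that do not overlap, Hcrt, Hcrtr1, Hcrtr2 and Gapdh, and up to 5 members of each list with the smallest p. Some genes that meet this rule are not reported here. Other genes are marked as named after their values were seen, or given as the called members of a short count. The comparison and the lists were chosen with earlier results of these data known. Promoter windows are from RefSeq (GRCm38.p6).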

Additional observations from a re-analysis of the deposited data

How the results depend on the processing

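The 54 genes higher by at least 2-fold became 34 with DESeq2, 96 with no filter, 29 at a minimum count of 30, 95 with total gene reads, 118 with intron reads and 35 to 50 with a library left out. At any fold, the 475 became 308 with DESeq2, 717 with no filter, 794 with total gene reads, 750 with intron reads, 810 with limma on RPKM and 189 to 381 with a library left out. The 138 lower genes became 88 to 159 with a library left out, and the 908 at any fold became 494 with limma on RPKM and 508 to 860 with a library left out. The glmTreat test against a fold of 1.2 was counted without the 2-fold requirement, and gave 70 higher and 293 lower genes. By intron reads, leaving out a library gave 62 to 127 and 340 to 601 higher genes at 2-fold and at any fold, and 120 to 192 and 573 to 985 lower ones. The causes were not tested. With upper-quartile scaling and library totals, the median log2 fold change of all genes was 0.03 and 0.0339, against 0.00153 with TMM.

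Same-numbered libraries of different groups did not deviate together (correlations from -0.211 to -6.85e-05). These values show no pairing by number, but they cannot tell whether same-numbered libraries were collected or processed together. With the replicate block, 46 and 135 genes were higher and lower by at least 2-fold and 350 and 781 at any fold.

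Of 145 named genes that were called, 94 kept the call without each library in turn and 51 lost it in at least 1 such fit. With intron reads the sign turned for Stip1 (-0.22), Cryab (-0.15), Rpl37 (-0.35), Rpl32 (-0.0003826), Rpl23 (-0.38), Aldoc (-0.22) and Fa2h (-0.0167). The sign also turned for mt-Nd3 (-0.22), but this gene has no introns. It turned for mt-Co2 and mt-Atp6 with total gene reads (0.16 and 0.12) and with limma on RPKM (0.20 and 0.16). Of the NMDA and AMPA receptor genes, 5 fell with limma on RPKM and 2 with glmTreat.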

Other observations

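Stress gene lists were mixed. Over all genes, 3.36% rose and 6.42% fell by exon reads, and 4.99% and 6.47% by intron reads. Of 24 cytosolic heat shock chaperone genes 4 rose and 1 fell, while by intron reads none of 21 rose and 3 fell. Bag3, a co-chaperone, rose from 12.3, 16.1 and 11.2 CPM to 20.03, 24.2 and 25.3 CPM, and Stip1 rose by 0.26 on the log2 scale by exon reads (-0.22 by intron reads, not called). Without CTRL replicate 1 or 2.0 MAC replicate 1, 2 of the list rose. Of 28 targets of the hypoxia-inducible factor 4 rose and 5 fell. Car12, a carbonic anhydrase gene, was 21.9, 19.2 and 25.4 CPM in CTRL and 7.05, 11.9 and 10.5 CPM in 2.0 MAC, and P4ha1 and Kdm3a fell by 0.52 and 0.41, whereas Ndrg1 and Slc2a1 rose by 0.33 and 0.63. The number that rose was 2 without 2.0 MAC replicate 1 or 3.

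Of 27 unfolded protein and integrated stress response genes 2 rose (Herpud1 and Sesn2) and 1 fell (Atf6), and none was called by DESeq2 or without CTRL replicate 1, 2.0 MAC replicate 1 or 2.0 MAC replicate 2. Of 25 oxidative stress and metallothionein genes 3 rose (Mt1, Mt2 and Fth1) and 1 fell (Slc7a11, a call lost without CTRL replicate 1 or 2.0 MAC replicate 1). Mt1 and Mt2 are also members of the glucocorticoid-induced list. Of 19 interferon and MHC class I genes 1 rose, H2-D1, by 0.43, and its reads may be shared with close copies such as H2-K1. For the lists of this paragraph, the shares over all genes were 3.36% higher and 6.42% lower.

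Of 23 core clock genes 1 rose (Bhlhe41, not called without CTRL replicate 1) and 2 fell, beside 3.36% of all genes higher and 6.42% lower. Npas2, a partner of Bmal1, fell by 0.69 and Per2 by 0.39, the latter not called without 2.0 MAC replicate 2. Of 36 cytosolic ribosomal protein genes, which have many near-identical copies, 3 rose (Rpl37, Rpl32 and Rpl23), with 1 to 6 when a library was left out. Among 14 choroid plexus markers 1 fell (F5, not called without CTRL replicate 3 or 2.0 MAC replicate 1 or 2), beside 6.42% of all genes. The choroid plexus list summed to between 999.4 and 1564 CPM in CTRL and 672.4 and 1216 CPM in 2.0 MAC. No oligodendrocyte precursor marker of 10, ependymal marker of 11 or pituitary and blood marker of 5 was called in the edgeR fit of all 9 libraries, and DESeq2 called 1 of them, Gh. Other edgeR fits called some of them, such as Gh with the replicate block and without 2.0 MAC replicate 3, and Hba-a1 without 2.0 MAC replicate 1. At an unadjusted p under 0.05, the numbers were 1 higher and 2 lower, 0 higher and 0 lower, and 3 higher and 0 lower in these lists.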
